A study of Homo sapiens with 12 samples.

Results

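The 50 genes described here belong to the pathway of ATF4, the transcription factor of the integrated stress response. They were listed by symbol for their roles in the pathway, with earlier results of these data known, and all 50 are among the 17085 gene symbols of the count table. They fall into 6 groups by role, with 8 transcription factors, 9 stress effectors, 7 enzymes of serine and one-carbon metabolism, 5 other amino acid enzymes, 8 amino acid transporters and 13 genes for tRNA charging and export. A filter on low counts left 48 members for testing among 12841 tested genes. The other 2, PHGDH, the entry enzyme of serine synthesis, and SLC6A9, a glycine transporter, had at most 4 and 8 counts in any library.

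The cells were 786-O, an established human line from a renal carcinoma, called wild type in the records, and their RNA was sequenced in bulk. There were 4 groups of 3 libraries, each harvested 24 h after treatment began. The DMSO group received the vehicle, the EVER group everolimus, an inhibitor of the kinase complex mTORC1, the SGI group 1.5 µM of the DNA methyltransferase inhibitor SGI-1027, and the COMB group 1.5 µM SGI-1027 with 5 µM everolimus. For everolimus alone the sources conflict, since the treatment label and the study's methods give 5 µM and the protocol text gives 10 µM. Every result comes from 1 cell line, and nothing says that the 3 libraries of a group were separate cultures, so p-values measure the spread between these libraries.

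When amino acids run short or unfolded proteins collect, kinases phosphorylate the initiation factor eIF2, general translation slows, and the ATF4 message is translated more. ATF4 then pairs with C/EBP proteins and raises genes that make, import and charge amino acids, together with factors such as CHOP (the product of DDIT3) and the phosphatase subunit GADD34 (PPP1R15A) that shape or end the response. mTORC1 also raises ATF4, through its translation and the stability of its message, so the pathway has an input from growth signals beside the one from stress.

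ATF4 with a C/EBP partner binds the amino acid response element, TGATGNAA, where N is any base. Promoter windows of RefSeq genes (build GRCh38.p14, from 250 bases before to 50 after each gene's start) were available for 40 of the 50 members. On either strand, 17 of these 40 held the element (42.5%), against 440 of 13462 genes of the count table with a window (3.27%). By role it was present in 7 of 11 genes for tRNA charging and export (63.6%), 4 of 7 transporters, 3 of 7 transcription factors and 1 of 8 stress effectors. None of the 9 other cytosolic synthetase genes with a window held it. A match is a description of the letters only, and no match says nothing about the factor. The 5 stretches below are those of the members with the element whose level differed most between SGI-1027 and DMSO, in either direction. Each runs 5′ to 3′ on the gene's strand, with the element, or its reverse complement, in capitals.
ATF3, chr1:212565205-212565234, plus strand: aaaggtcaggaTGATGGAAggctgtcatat
ASNS, chr7:97872458-97872487, minus strand: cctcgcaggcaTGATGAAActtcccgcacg
AARS1, chr16:70289675-70289704, minus strand: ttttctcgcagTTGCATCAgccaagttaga
JDP2, chr14:75427995-75428024, plus strand: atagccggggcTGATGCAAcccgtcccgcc
IARS1, chr9:92293692-92293721, minus strand: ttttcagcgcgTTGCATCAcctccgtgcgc
The element lies before the annotated start in all 5, at position -191 in ATF3, -68 in ASNS, -187 in AARS1, -16 in JDP2 and -13 in IARS1. With SGI-1027 the first 4 genes rose and IARS1 fell, with values given below.

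The libraries held 37046231 to 41516976 counts, and the 50 members made up 0.603 to 0.611% of the counts in DMSO, 0.507 to 0.526% in EVER, 0.637 to 0.659% in SGI and 0.690 to 0.719% in COMB. SGI replicate 3 stood farthest from its own group, with a chi-square per gene of 16.1 and 16.4 against the other SGI libraries, followed by DMSO replicate 1 with 10.1 and 12.9. The remaining pairs within a group lay between 3.04 and 5.46. The renal lineage marker PAX8 averaged 325 to 418 normalised CPM (counts scaled to library size with TMM factors) across the groups, and VIM, KRT8 and KRT18 were expressed in each. The other chosen markers, PAX2, EPAS1 and CDH6, had mean counts of 739, 6577 and 13100 in DMSO and 609, 11155 and 7183 in COMB. Of the renal markers, CDH6 was thus lowest (-0.86) and EPAS1 highest (0.77) as log2 fold changes with the combination. The leukocyte marker PTPRC, the T cell marker CD3E, the endothelial markers CDH5 and PECAM1 and the hepatocyte marker ALB were at 0 or averaged at most 0.248 normalised CPM.

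Against DMSO, more members were lower than higher with everolimus, and more were higher than lower with SGI-1027 and with the combination. A gene is called here at an adjusted p under 0.05 by edgeR's quasi-likelihood test, adjusted over all tested genes. Everolimus raised 8 members and lowered 29 of the 48, where 27.2% of all tested genes were called higher and 29.2% lower. SGI-1027 raised 22 and lowered 12, against 32.0% and 30.6% of all tested genes. The combination raised 24 and lowered 10, against 32.8% and 33.4%. The members' median log2 fold changes with everolimus, SGI-1027 and both drugs were -0.18, 0.12 and 0.13, and the medians over all tested genes were 0.0013, 0.017 and 0.0074. These 3 comparisons share the DMSO libraries. With upper-quartile in place of TMM scaling, everolimus raised 10 and lowered 22 members, while the calls over all genes went from 3488 higher and 3749 lower to 4480 and 2901. Without SGI replicate 3, SGI-1027 raised 25 and lowered 11 members, and without DMSO replicate 1 it raised 23 and lowered 14. In bulk RNA, fewer cells that express a gene and less RNA per cell cannot be told apart. The paper reports that the drugs together, but neither alone, made cells of this line release lactate dehydrogenase before the time of harvest. It reads this release as damage to the cell membrane during cell death. The share of dying cells in the COMB libraries, and its part in any value of the combination, was not tested.

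The study's own cut-off asks for an unadjusted p under 0.05 with a log2 fold change of 1 or more in either direction. With everolimus no member passed it, against 4.79% of all tested genes. With SGI-1027, 4 members passed it (7.33% of all tested genes), namely NUPR1, ALDH1L2, ASNS and WARS1. With the combination, 7 passed it (9.96% of all tested genes), the same 4 together with PPP1R15A, CTH and DDIT3. All were higher than in DMSO. ASNS with SGI-1027 fell just under the cut-off without DMSO replicate 1 (0.98) or SGI replicate 1 (0.99), WARS1 with SGI-1027 without SGI replicate 3 (0.99), and CTH with the combination without COMB replicate 2 (0.99).

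**Figure D1:**
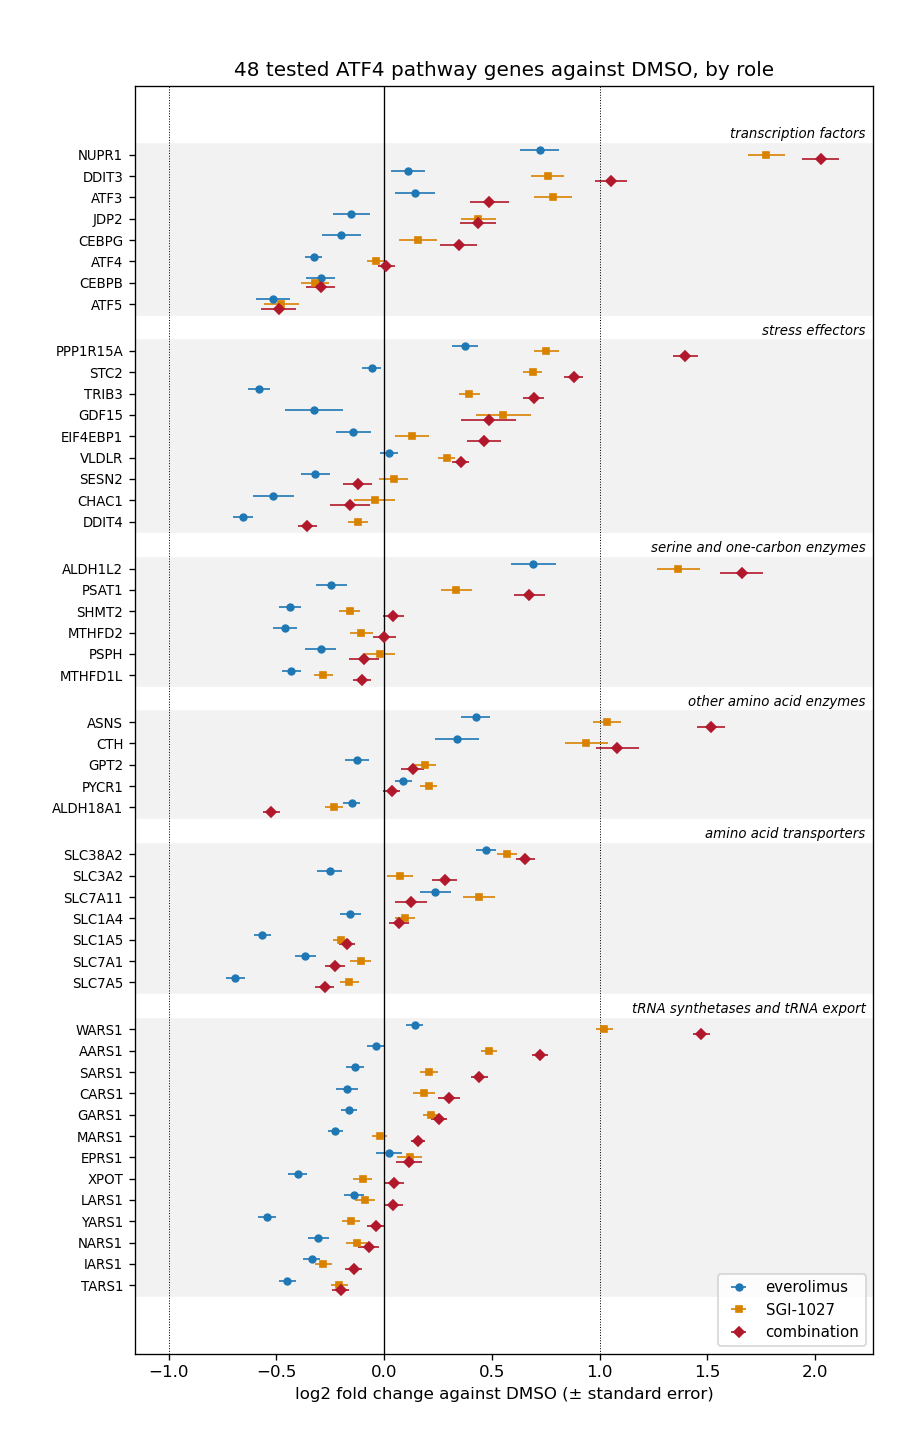
Log2 fold change against DMSO (horizontal axis, ± standard error) of the 48 tested members, grouped by role, with circles for everolimus, squares for SGI-1027 and diamonds for the combination, and dotted lines at a change of 1 in either direction. NUPR1, ALDH1L2, ASNS and WARS1 lie past 1 with SGI-1027 and farther out with the combination, whereas most synthetases and transporters lie below 0 with everolimus.

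Among the transcription factors, ATF4 itself measured 348, 318 and 325 normalised CPM in the DMSO libraries, 262, 261 and 267 in EVER, 316, 309.8 and 338 in SGI and 329.6, 338 and 332 in COMB. The 3 EVER libraries lay below all others, and the SGI and COMB values overlapped those of DMSO. ATF4 was thus 1.25-fold lower with everolimus (log2 fold change -0.33 ± 0.041 (SE), adjusted p = 2.19e-06). It was not called with SGI-1027 (-0.040 ± 0.041, adjusted p = 0.410) or with the combination (0.011 ± 0.041, adjusted p = 0.825). These values are of the message, and the protein, which is set largely by translation, was not measured here.

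NUPR1, a stress-induced chromatin protein, measured 14.9, 15.1 and 15.2 normalised CPM in DMSO, 25.5, 20.8 and 28.4 in EVER, 50.1, 50.7 and 54.0 in SGI and 63.4, 64.9 and 56.0 in COMB. The 4 groups did not overlap and rose in that order. Its log2 fold changes against DMSO were 0.72 ± 0.090 in EVER, 1.77 ± 0.087 in SGI and 2.03 ± 0.087 in COMB, the highest of the members in each comparison. In the last of these it was 4.07-fold higher (adjusted p = 6.91e-13). DDIT3, which encodes CHOP, a partner of ATF4 and a promoter of cell death under long stress, measured 8.75, 9.16 and 9.06 normalised CPM in DMSO, 9.19, 10.0 and 9.88 in EVER, 16.3, 15.4 and 13.9 in SGI and 19.1, 18.5 and 18.3 in COMB. DMSO and EVER lay close together, and every SGI library lay above both and below every COMB library. DDIT3 was 1.69-fold higher with SGI-1027 (adjusted p = 9.51e-08) and 2.07-fold higher with the combination (adjusted p = 7.54e-10), and it was not called with everolimus (0.11 ± 0.078, adjusted p = 0.248).

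ATF3, a stress-induced repressor, was 1.72-fold higher with SGI-1027 and 1.40-fold higher with the combination, with 6.49, 6.32 and 6.65 normalised CPM in DMSO, 10.9, 11.5 and 11.2 in SGI and 9.01, 8.45 and 9.83 in COMB. All COMB values of ATF3 lay between those of DMSO and SGI. With everolimus ATF3 was not called (0.14 ± 0.093, adjusted p = 0.202). Its raw counts were 243, 315 and 275 in EVER, beside 242, 260 and 254 in DMSO. JDP2, a related repressor, had the same log2 fold change of 0.44 with SGI-1027 and with the combination, and it was not called with everolimus (-0.15 ± 0.086, adjusted p = 0.139). In contrast, ATF5 and CEBPB, a C/EBP partner of ATF4, fell with each treatment. ATF5 fell by 0.52, 0.48 and 0.49 on the log2 scale with everolimus, SGI-1027 and the combination, and CEBPB fell by 0.29, 0.32 and 0.29. CEBPG, the other C/EBP member, rose only with the combination among the comparisons with DMSO (0.35 ± 0.087, adjusted p = 0.00202), with -0.20 ± 0.090 for everolimus and 0.16 ± 0.088 for SGI-1027 not called. Over the 8 factors the median was -0.18 for everolimus, 0.30 for SGI-1027 and 0.39 for both drugs.

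Among the 9 stress effectors, everolimus and SGI-1027 moved TRIB3 in opposite directions. TRIB3, a pseudokinase that restrains ATF4 and CHOP, measured 86.5, 89.7 and 97.7 normalised CPM in DMSO, 59.0, 59.8 and 64.5 in EVER, 119.7, 122 and 119 in SGI and 140.1, 148 and 155 in COMB. The 4 groups did not overlap, with EVER below DMSO, and SGI and COMB above it. TRIB3 fell 1.49-fold with everolimus (adjusted p = 3.51e-08) and rose 1.32-fold with SGI-1027 (adjusted p = 2.16e-06) and 1.62-fold with the combination (adjusted p = 1.06e-09). PPP1R15A, the phosphatase subunit that reverses eIF2 phosphorylation, measured 36.7, 32.7 and 33.4 normalised CPM in DMSO, 43.7, 44.1 and 45.6 in EVER, 54.6, 56.1 and 62.6 in SGI and 89.5, 94.1 and 87.4 in COMB. Its groups did not overlap either, and every treatment raised it, by 1.30-fold, 1.68-fold and 2.64-fold in that order.

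STC2, a secreted glycoprotein, rose 1.61-fold with SGI-1027 and 1.84-fold with the combination and was not called with everolimus (-0.057 ± 0.044). VLDLR, a lipoprotein receptor, showed the same calls with smaller changes of 0.29 ± 0.040 and 0.36 ± 0.040 (not called with everolimus, 0.023 ± 0.040). GDF15, a circulating stress cytokine, rose by 0.55 ± 0.13 with SGI-1027 and by 0.49 ± 0.13 with the combination. With everolimus its log2 fold change was -0.32 ± 0.13 (adjusted p = 0.0476), a call that was lost under 12 of 20 alternatives, among them leaving out DMSO replicate 1 (adjusted p = 0.14) or EVER replicate 2 (adjusted p = 0.14). DDIT4, which encodes the mTORC1 inhibitor REDD1, was instead lowest with everolimus, with 219.5, 239 and 226 normalised CPM in DMSO, 146, 137 and 152 in EVER, 218, 211 and 201 in SGI and 182, 175 and 178 in COMB. It was 1.57-fold lower with everolimus (adjusted p = 1.52e-09) and 1.28-fold lower with the combination (adjusted p = 1.66e-06). With SGI-1027 its call (-0.12 ± 0.045) did not hold when DMSO replicate 2 or 3 or SGI replicate 3 was left out (adjusted p of 0.16, 0.051 and 0.088) or with upper-quartile scaling (-0.066, adjusted p = 0.23).

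CHAC1, an enzyme that degrades glutathione, and SESN2, a leucine sensor that restrains mTORC1, fell with everolimus (-0.51 ± 0.096 and -0.32 ± 0.067). Neither was called with SGI-1027 (-0.044 ± 0.093 and 0.044 ± 0.066) or with the combination (-0.16 ± 0.094 and -0.12 ± 0.066). EIF4EBP1, the translation repressor that mTORC1 phosphorylates, rose with the combination (0.46 ± 0.080, adjusted p = 5.43e-05) and was called with neither single drug (-0.14 ± 0.081 and 0.13 ± 0.080). The 9 effectors had medians of -0.32 for everolimus, 0.29 for SGI-1027 and 0.46 for both drugs.

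Of the 6 tested enzymes of serine and one-carbon metabolism, 5 fell with everolimus and 1, ALDH1L2, rose. Of all tested genes, 29.2% were called lower and 27.2% higher in this comparison. ALDH1L2, which oxidises formyl-tetrahydrofolate in mitochondria, measured 6.65, 7.34 and 7.07 normalised CPM in DMSO, 9.62, 11.4 and 13.0 in EVER, 17.0, 17.4 and 19.9 in SGI and 23.1, 20.7 and 22.8 in COMB. The groups did not overlap, and the change reached 2.58-fold with SGI-1027 (adjusted p = 1.75e-09) and 3.16-fold with the combination (adjusted p = 7.01e-11). It had the lowest level per length of the tested members, at 0.867 mean FPKM in DMSO.

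The mitochondrial folate enzymes MTHFD2, SHMT2 and MTHFD1L, which turn serine into formate, went the other way with everolimus, falling by 0.46, 0.44 and 0.43 on the log2 scale. With SGI-1027 their values were -0.11 ± 0.055 (not called), -0.16 ± 0.050 and -0.28 ± 0.042, and with the combination 0.0018 ± 0.055, 0.043 ± 0.050 and -0.10 ± 0.042. Of the last 3 only MTHFD1L was called, and its call was lost under 10 of 20 alternatives, with an adjusted p of up to 0.33. The call of SHMT2 with SGI-1027 was lost without SGI replicate 1 (-0.10, adjusted p = 0.074) and with upper-quartile scaling (-0.11, adjusted p = 0.069). PSAT1, the aminotransferase of serine synthesis, fell with everolimus (-0.24 ± 0.073) and rose 1.26-fold with SGI-1027 and 1.59-fold with the combination. Its fall with everolimus was no longer called with upper-quartile scaling (-0.17, adjusted p = 0.057). PSPH, the phosphatase that ends the same route, fell with everolimus (-0.29 ± 0.071) and was not called with SGI-1027 (-0.018 ± 0.070) or the combination (-0.094 ± 0.070). The median log2 fold change of the group was -0.36, -0.062 and 0.022 in the 3 comparisons.

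The other amino acid enzymes held ASNS, asparagine synthetase, a much used readout of ATF4, whose element is shown above. ASNS measured 30.7, 34.9 and 34.8 normalised CPM in DMSO, 43.0, 45.6 and 46.2 in EVER, 72.9, 70.4 and 62.5 in SGI and 89.7, 100.3 and 97.6 in COMB. The groups did not overlap. ASNS rose 1.34-fold with everolimus (0.43 ± 0.066, adjusted p = 2.74e-05), 2.05-fold with SGI-1027 (1.04 ± 0.065, adjusted p = 2.24e-10) and 2.87-fold with the combination (1.52 ± 0.065, adjusted p = 6.91e-13).

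CTH, the enzyme that releases cysteine from cystathionine, measured 5.50, 5.10 and 5.50 normalised CPM in DMSO, 6.73, 6.45 and 7.19 in EVER, 10.3, 10.9 and 9.59 in SGI and 10.3, 12.8 and 11.0 in COMB. Both EVER and SGI lay above DMSO, and SGI and COMB overlapped. CTH was 1.26-fold, 1.92-fold and 2.12-fold higher in the 3 comparisons. The proline route split. ALDH18A1, which makes the proline precursor, fell with every treatment and most with the combination (-0.52 ± 0.041, adjusted p = 2.81e-09), from 170.4 ± 5.66 normalised CPM (SD, n = 3) in DMSO to 119 ± 4.08. Its call with everolimus (-0.15 ± 0.040) was lost with upper-quartile scaling (-0.076, adjusted p = 0.12). PYCR1, which completes proline, measured 149, 147 and 149.8 normalised CPM in DMSO, 159, 151 and 165 in EVER, 168, 174 and 173 in SGI and 149, 150.4 and 158 in COMB. Its SGI libraries lay above all others, and it was called with SGI-1027 (0.21 ± 0.040, adjusted p = 0.000200) but not with everolimus (0.089 ± 0.040) or the combination (0.035 ± 0.040). GPT2, an alanine aminotransferase, rose with SGI-1027 (0.19 ± 0.054). Its call with the combination (0.13 ± 0.055, adjusted p = 0.0404) was lost without COMB replicate 3 (adjusted p = 0.21), COMB replicate 2 (adjusted p = 0.056), DMSO replicate 3 (adjusted p = 0.16) or EVER replicate 1 (adjusted p = 0.052). This call was also lost with no filter on low counts (adjusted p = 0.066) and with replicate number added to the fit (adjusted p = 0.058). The group's median log2 fold change was 0.089, 0.21 and 0.13.

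All 7 tested transporters were called with everolimus, 2 higher and 5 lower, where 27.2% of all tested genes were called higher and 29.2% lower. SLC7A5, the light chain of the leucine carrier LAT1, was lowest there, with 380.4, 367 and 347 normalised CPM in DMSO, 220.4, 221 and 237 in EVER, 321, 319.8 and 338 in SGI and 288, 308 and 309 in COMB. It was 1.61-fold lower with everolimus (adjusted p = 5.53e-10), the largest fall of any member, and 1.12-fold and 1.21-fold lower with SGI-1027 and the combination. SLC1A5, a glutamine carrier, measured 264, 258 and 253 normalised CPM in DMSO, 171, 172 and 181 in EVER, 222, 226 and 227 in SGI and 221, 231 and 236 in COMB. EVER lay lowest and DMSO highest, while SGI and COMB overlapped between them. SLC1A5 fell 1.48-fold, 1.15-fold and 1.13-fold in the 3 comparisons.

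SLC38A2, a sodium-coupled neutral amino acid carrier, rose with each treatment, unlike SLC7A5 and SLC1A5. It measured 155, 159.6 and 172 normalised CPM in DMSO, 221, 226 and 228 in EVER, 245, 246 and 232 in SGI and 243, 254 and 271 in COMB, with every treated library above DMSO, and its changes were 0.47 ± 0.046, 0.57 ± 0.046 and 0.66 ± 0.046. SLC7A11, the cystine carrier that feeds glutathione synthesis, measured 45.6, 53.5 and 54.0 normalised CPM in DMSO, 58.6, 62.3 and 59.9 in EVER, 75.0, 71.6 and 61.4 in SGI and 54.6, 52.8 and 59.9 in COMB. It rose with SGI-1027 (0.44 ± 0.074, adjusted p = 4.71e-05) and was not called with the combination (0.13 ± 0.074), whose libraries overlapped DMSO. Its call with everolimus (0.24 ± 0.074, adjusted p = 0.0105) did not hold when DMSO replicate 1 was left out (0.16, adjusted p = 0.062). SLC3A2, the heavy chain that partners both SLC7A5 and SLC7A11, fell with everolimus (-0.25 ± 0.059) and rose with the combination (0.28 ± 0.059). The arginine carrier SLC7A1 fell with everolimus (-0.36 ± 0.048) and the combination (-0.23 ± 0.047), and SLC1A4, which carries serine and alanine, fell with everolimus (-0.16 ± 0.047). The call of SLC1A4 was lost with upper-quartile scaling (-0.082, adjusted p = 0.14). The group's median log2 fold change was -0.25, 0.073 and 0.070.

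**Figure D2:**
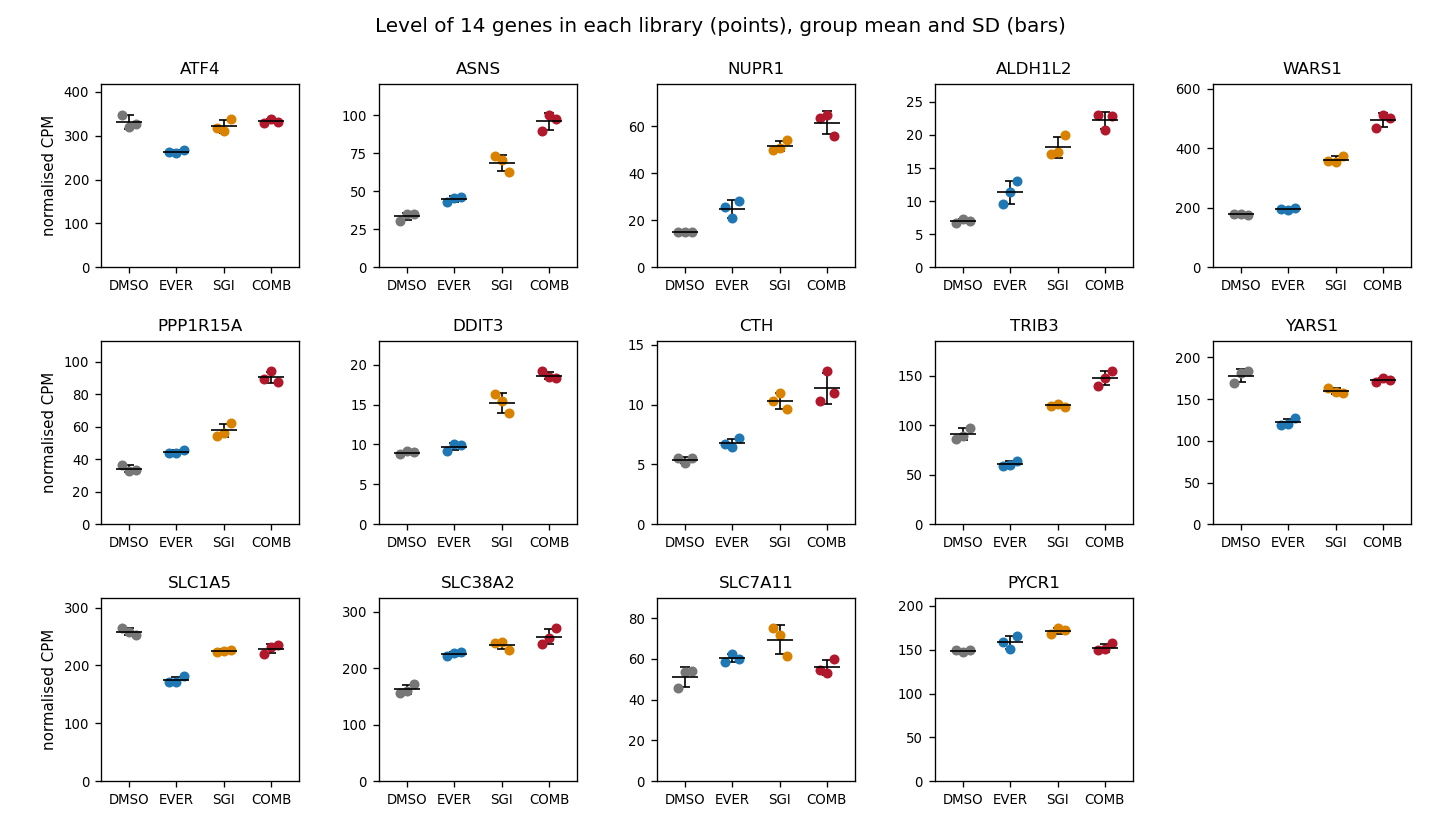
Normalised CPM (vertical axes, from 0) of 14 members in each library, with points for the 3 libraries of a group and bars for the group mean and SD. EVER lies below DMSO for ATF4, TRIB3, YARS1 and SLC1A5 and above it for ASNS, NUPR1, ALDH1L2, PPP1R15A, CTH and SLC38A2.

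Of the 13 genes for tRNA charging and export, everolimus lowered 10 and raised 1, where 29.2% of all tested genes were lower and 27.2% higher. With upper-quartile scaling 3 of the falls were no longer called, those of CARS1, LARS1 and SARS1 (adjusted p of 0.12, 0.23 and 0.21). The call of CARS1 was also lost without EVER replicate 2 (adjusted p = 0.065), and that of LARS1 without DMSO replicate 3 (adjusted p = 0.075) or EVER replicate 3 (adjusted p = 0.058). WARS1, which charges tryptophan and is also known as an interferon-inducible gene, was the one that rose. It measured 178, 179 and 176 normalised CPM in DMSO, 197, 193 and 199 in EVER, 356, 352 and 375 in SGI and 468, 513 and 500.0 in COMB. Its groups did not overlap, and it was 1.10-fold higher with everolimus (adjusted p = 0.00558), 2.03-fold with SGI-1027 (adjusted p = 4.81e-13) and 2.77-fold with the combination (adjusted p = 2.04e-15). YARS1, which charges tyrosine, measured 169, 181 and 183 normalised CPM in DMSO, 119, 120.3 and 127 in EVER, 163, 158 and 157 in SGI and 170.3, 175 and 173 in COMB. It was 1.46-fold lower with everolimus (adjusted p = 3.99e-09), and the COMB libraries overlapped DMSO (-0.039 ± 0.041, adjusted p = 0.407).

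The synthetases differed among themselves with SGI-1027. Beside WARS1, the enzymes for alanine (AARS1), glycine (GARS1), serine (SARS1) and cysteine (CARS1) rose, by 0.49 ± 0.037, 0.22 ± 0.036, 0.21 ± 0.041 and 0.19 ± 0.051. Those for isoleucine (IARS1), threonine (TARS1), tyrosine (YARS1) and asparagine (NARS1) fell, with -0.28 ± 0.040, -0.21 ± 0.039, -0.15 ± 0.041 and -0.13 ± 0.048. The call of NARS1 did not hold when DMSO replicate 2 or 3 or SGI replicate 3 was left out (adjusted p of 0.11, 0.13 and 0.14) or with upper-quartile scaling (-0.072, adjusted p = 0.21). The remaining 4, LARS1 for leucine, MARS1 for methionine, the glutamyl-prolyl enzyme EPRS1 and the exporter XPOT, were not called, between -0.098 and 0.12. With the combination, AARS1 rose 1.65-fold, SARS1 1.36-fold, CARS1 1.23-fold, GARS1 1.19-fold and MARS1 1.12-fold, whereas TARS1 (-0.20 ± 0.039) and IARS1 (-0.14 ± 0.040) fell. The fall of IARS1 was no longer called with upper-quartile scaling (-0.085, adjusted p = 0.073). AARS1 was not called with everolimus (-0.040 ± 0.037), and neither was EPRS1 (0.022 ± 0.060). The median of the 13 was -0.17 for everolimus, -0.020 for SGI-1027 and 0.12 for both drugs. The SGI-1027 median was 0.035 with upper-quartile scaling, so its sign depends on the scaling.

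Synthetase genes outside the membership mostly fell. Of 12 other cytosolic synthetase and scaffold genes, everolimus raised 1 and lowered 8, SGI-1027 raised 1 and lowered 9, and the combination raised 1 and lowered 8. Of all tested genes, 27.2%, 32.0% and 32.8% were higher and 29.2%, 30.6% and 33.4% lower in these comparisons. The medians of the 12 were -0.47, -0.53 and -0.55. QARS1, which charges glutamine, was the one that rose (0.29 ± 0.033 with the combination), and VARS1, which charges valine, fell most with the combination (-0.99 ± 0.035). Of 17 mitochondrial synthetase genes, 11, 12 and 11 fell and 1, 2 and 2 rose, with medians of -0.26, -0.42 and -0.30. EARS2 was the lowest of these with the combination (-1.05 ± 0.044) and VARS2 the highest (0.35 ± 0.064).

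**Figure D3:**
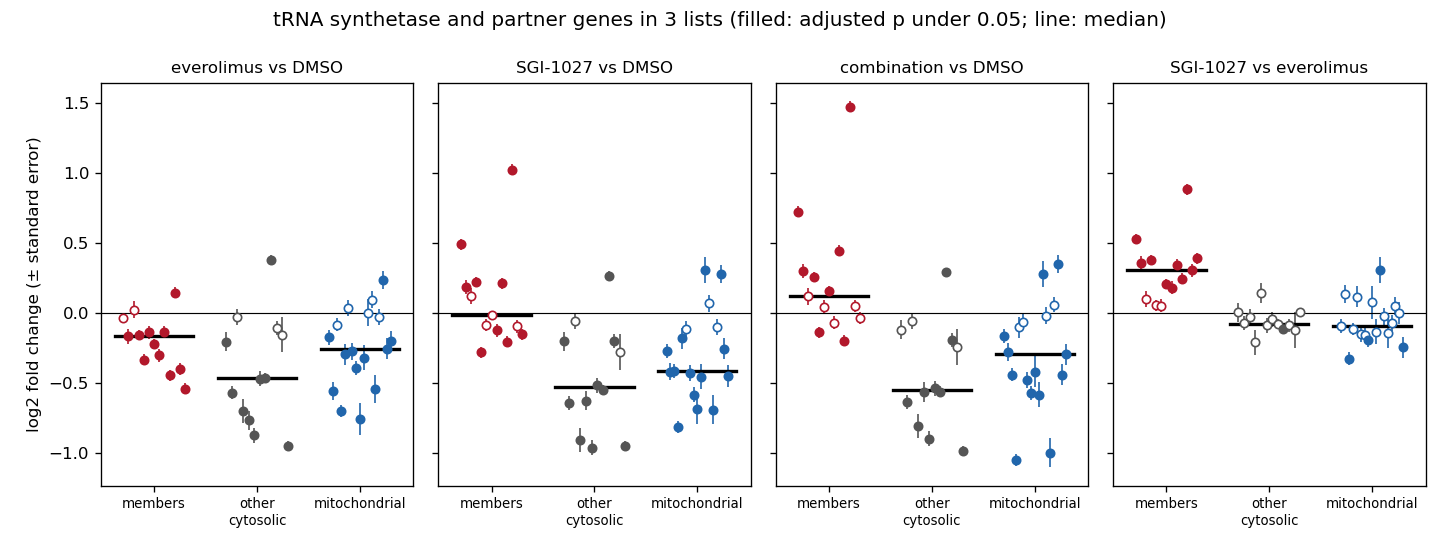
Log2 fold changes (vertical axis, ± standard error) of the 13 members for tRNA charging and export, the 12 other cytosolic synthetase and scaffold genes and the 17 mitochondrial synthetases, 1 point a gene, filled where the adjusted p is under 0.05, with a line at each median. In the panel of SGI-1027 against everolimus the members have a median of 0.30, and the other 2 lists lie close to 0, at -0.079 and -0.096.

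Setting SGI-1027 directly against everolimus asks where the single drugs part, without DMSO as the reference. The DMSO libraries still entered the fit through the filter, the scaling and the shared estimate of spread. In this comparison the members lay almost all on one side. Of the 48, 40 were higher with SGI-1027 than with everolimus and none was lower, where 13.0% of all tested genes were called higher and 9.51% lower. By edgeR the count of lower members was also 0 at an unadjusted p under 0.05. DESeq2 and limma-trend on log2(FPKM + 1) called none lower after adjustment and 1 each at an unadjusted p under 0.05, and the other alternatives run also called none lower after adjustment. The median log2 fold change was 0.35, against 0.0036 over all tested genes. Only NUPR1 passed a change of 1 (1.05 ± 0.083, adjusted p = 3.86e-08).

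By role, all 9 stress effectors, all 6 serine and one-carbon enzymes, 6 of 8 transcription factors, 4 of 5 other amino acid enzymes, 5 of 7 transporters and 10 of 13 genes for tRNA charging and export were higher with SGI-1027. The medians ran from 0.26 for the transporters to 0.47 for the transcription factors. TRIB3 was 1.97-fold higher with SGI-1027 than with everolimus (0.98 ± 0.052, adjusted p = 1.3e-10), WARS1 1.84-fold (0.88 ± 0.040), GDF15 1.84-fold (0.88 ± 0.13) and STC2 1.68-fold (0.75 ± 0.044). ATF4 was 1.22-fold higher (0.29 ± 0.041, adjusted p = 4.62e-05). The 8 not called were ATF5 (0.039 ± 0.082), CEBPB (-0.026 ± 0.067), ALDH18A1 (-0.083 ± 0.041), SLC38A2 (0.097 ± 0.045), SLC7A11 (0.20 ± 0.073), IARS1 (0.054 ± 0.040), LARS1 (0.050 ± 0.045) and EPRS1 (0.097 ± 0.060). Of the calls, those of EIF4EBP1, PSPH, MTHFD1L, PYCR1 and NARS1 were lost under at least 1 alternative. Among the 12 other cytosolic synthetase genes, by contrast, 0 were called higher and 1 lower in the same comparison by edgeR, DESeq2 and limma-trend alike, and at an unadjusted p under 0.05 each counted 0 higher and 3 lower.

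The combination was then compared with each single drug. Against everolimus, 42 members were higher in the combination and 1 was lower (20.1% and 19.2% of all tested genes), with a median log2 fold change of 0.40. If everolimus alone was given at the dose in the protocol text, this comparison also changes the everolimus dose. The lower member was ALDH18A1 (-0.37 ± 0.041). The largest rises were those of WARS1 (1.33 ± 0.040), NUPR1 (1.30 ± 0.083), TRIB3 (1.27 ± 0.052), ASNS (1.09 ± 0.064) and PPP1R15A (1.02 ± 0.057), each with an adjusted p of at most 5.22e-10. ATF4 was 1.26-fold higher in the combination than with everolimus (adjusted p = 2.62e-06). The calls of SESN2, PSPH and SLC7A1 were lost under at least 1 alternative, each among them without EVER replicate 1 (adjusted p = 0.13, 0.15 and 0.17).

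Against SGI-1027, 19 members were higher in the combination and 5 lower (9.40% and 10.2% of all tested genes), with a median of 0.096. PPP1R15A showed the largest rise (0.65 ± 0.056, adjusted p = 1.69e-07), followed by ASNS (0.48 ± 0.062, adjusted p = 1.88e-05) and WARS1 (0.45 ± 0.039, adjusted p = 1.61e-07). The 5 lower members were SLC7A11 (-0.31 ± 0.073), ATF3 (-0.29 ± 0.087), ALDH18A1 (-0.29 ± 0.041), DDIT4 (-0.24 ± 0.045) and PYCR1 (-0.17 ± 0.040). The call of ATF3 was lost without COMB replicate 1, COMB replicate 2 or SGI replicate 2 (adjusted p of 0.063, 0.12 and 0.070). Of the 19 rises, those of NUPR1, SHMT2, ALDH1L2, SLC3A2, IARS1, LARS1 and XPOT were lost under at least 1 alternative, each of them when a single library was left out, and 13 members were called higher in the leave-out that called fewest. None of the 12 other cytosolic synthetase genes was called here by edgeR, DESeq2 or limma-trend, also at an unadjusted p under 0.05 (0 genes), and their log2 fold changes lay between -0.036 and 0.099.

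The interaction contrast asks whether the combination differs from both single-drug log2 fold changes added together, which holds at matched doses only if everolimus alone was given at 5 µM. It was above 0 for 30 members and below 0 for 6 (23.6% and 22.1% of all tested genes), with a median of 0.28 beside -0.0082 for all tested genes. Upper-quartile scaling gave 27 and 7 members, while the calls over all genes went from 3028 above and 2833 below 0 to 2335 and 3578. TRIB3 was farthest above 0 (0.88 ± 0.072, adjusted p = 3.18e-08). The single-drug log2 fold changes of TRIB3, -0.58 and 0.40, stood beside 0.69 for both drugs. YARS1 (0.66 ± 0.058, adjusted p = 6.75e-08) and SLC1A5 (0.59 ± 0.054, adjusted p = 1.03e-07) were lower with each drug alone, and with both drugs YARS1 was at -0.039 and SLC1A5 at -0.17. ATF4 was also above 0 (0.38 ± 0.058, adjusted p = 3.8e-05).

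Below 0 lay SLC7A11 (-0.55 ± 0.10), NUPR1 (-0.47 ± 0.12), ATF3 (-0.44 ± 0.13), ALDH1L2 (-0.40 ± 0.14), SLC38A2 (-0.39 ± 0.064) and PYCR1 (-0.26 ± 0.056). SLC38A2 and NUPR1 thus rose with both drugs by less than their single-drug changes add up to. The call of ALDH1L2 was lost without COMB replicate 2, DMSO replicate 1, EVER replicate 3 or SGI replicate 3 (adjusted p of 0.067, 0.054, 0.091 and 0.051). It was also lost by limma-trend on log2(FPKM + 1) (-0.14, adjusted p = 0.25) and on log2(FPKM + 0.1) (-0.33, adjusted p = 0.083). ASNS did not depart from the sum at this threshold (0.057 ± 0.091, adjusted p = 0.638).

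By role, 12 of 13 genes for tRNA charging and export were above 0 and none below, with a median of 0.36. DESeq2 and limma-trend gave the same counts, and at an unadjusted p under 0.05 also 0 were below. For the serine and one-carbon enzymes 4 of 6 were above and 1 below, with a median of 0.57, the highest of the groups. None of the 5 other amino acid enzymes was above 0 by edgeR, DESeq2 or limma-trend (0 also at an unadjusted p under 0.05) and 1 was below, with a median of -0.14, the lowest. The 12 other cytosolic synthetase genes showed the same direction, with 8 above and 1 below 0 and a median of 0.45, so this direction was not particular to the members. FARSB, for example, was at -0.88, -0.97 and -0.90 in the comparisons with DMSO, while the member PSAT1, with a similar sign of the interaction (0.58 ± 0.10), was at -0.24, 0.34 and 0.67. Both genes were picked after their values were seen, and the everolimus value of PSAT1 was not called with upper-quartile scaling.

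**Figure D4:**
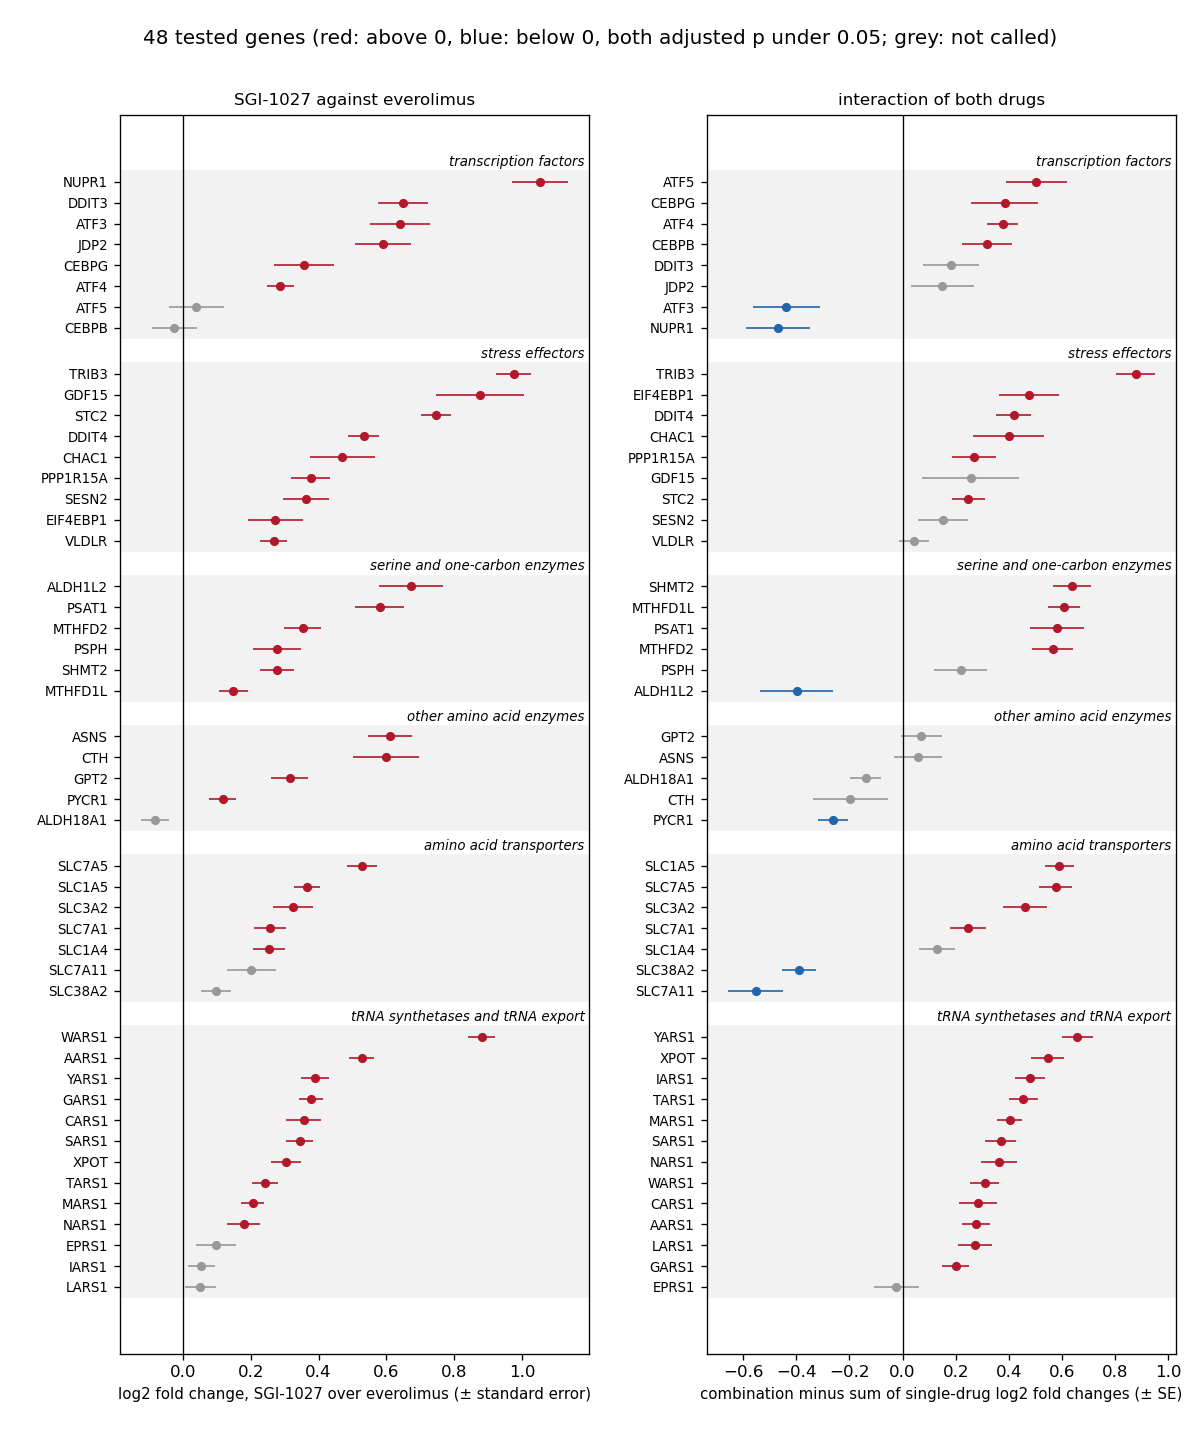
SGI-1027 over everolimus as a log2 fold change (left) and the combination minus both single-drug log2 fold changes (right), each ± standard error, for the 48 tested members by role, red for above and blue for below 0 at an adjusted p under 0.05 and grey for not called. On the left no gene is blue, and on the right TRIB3 is the highest at 0.88 and SLC7A11 the lowest at -0.55.

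Around the pathway, the 17 eIF2 kinase and eIF2 machinery genes fell more often than they rose, with 10 lower and 3 higher with everolimus, 11 and 3 with SGI-1027 and 13 and 3 with the combination. As shares these were 58.8%, 64.7% and 76.5% lower, against 29.2%, 30.6% and 33.4% of all tested genes, and 17.6% higher each time, against 27.2%, 32.0% and 32.8%. EIF2AK2, the RNA-activated eIF2 kinase PKR, rose most with the combination (1.16 ± 0.047, adjusted p = 3.64e-13), and EIF2B3, a subunit of the exchange factor that eIF2 phosphorylation blocks, fell most (-0.84 ± 0.076, adjusted p = 2.07e-08). Of 15 tested further ATF4 and CHOP targets, 4 rose and 4 fell with everolimus, 8 and 3 with SGI-1027 and 11 and 2 with the combination, where KLHL24 was highest (3.12 ± 0.071) and INHBE lowest (-0.98 ± 0.28). With everolimus the share of these targets was 26.7% in each direction, near that of all tested genes (27.2% higher and 29.2% lower), while with SGI-1027 and the combination 53.3% and 73.3% were higher, against 32.0% and 32.8%. KLHL24 was also the highest of them with everolimus (2.80) and with SGI-1027 (2.74). Its mean counts were 153 in DMSO, 1062 in EVER, 1011 in SGI and 1327 in COMB. INHBE was low, with 52 to 79 counts a library in DMSO and 25 to 42 in COMB. Of 14 tested other serine, glycine and folate enzymes, 1 rose and 8 fell with everolimus, 3 and 10 with SGI-1027 and 2 and 9 with the combination. The shares that fell were 57.1%, 71.4% and 64.3%, against the same 29.2%, 30.6% and 33.4%. AMT, a part of the glycine cleavage system, was the highest there (1.97 ± 0.22) and GLDC, another part of it, the lowest (-1.26 ± 0.30). Both rest on few counts. AMT had 29 to 44 a library in DMSO and 113 to 165 in COMB, and GLDC 42 to 46 and 16 to 20.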

How the data were processed

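RNA-seq of 786-O cells was compared in 4 groups of 3 libraries (DMSO, EVER, SGI, COMB), grouped by their labels. The authors deposited raw counts per gene symbol and a table of FPKM, in which reads are divided by gene length and sequencing depth. The aligner and counting program are not given in the sources used here. The submitters' processing notes name the mouse builds GRCm38 and mm10, although nearly all symbols are human, so no coordinate was taken from the files. For library preparation the study's methods name TRIzol and a TruSeq stranded kit, and the records an RNeasy and a SMARTer kit.

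Counts were fitted in R 4.3.3 with edgeR 4.0.16 (filterByExpr with the 4 groups, TMM factors, 12 libraries in 1 quasi-likelihood fit, prior count 0.125). Of 17085 genes, 12841 were tested, and p-values were adjusted over them after Benjamini and Hochberg. Errors are standard errors of log2 fold changes, or SDs of normalised CPM over 3 libraries. At 37046231 to 41516976 counts per library, the spread between replicates exceeded counting error on average over the tested genes (chi-square per gene of 3.04 to 16.4). For members with few counts this need not hold. CTH, for example, had 205, 210 and 210 counts in the DMSO libraries. On simulated data with 198 changed genes among 12744 tested, the everolimus comparison recovered 194 with 10 false calls. Few genes changed there, and every gene had the same spread. In the real data everolimus had 3488 genes called higher and 3749 lower, so the simulated false calls give no error rate for them. Recovery at the size of the members' own log2 fold changes with everolimus, -0.69 to 0.72, was not tested.

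Members, sub-groups and pathway lists were chosen with earlier results of these data known. Named with the value in every library are ATF4, ASNS, members past the study's cut-off against DMSO, and the 3 above and 3 below 0 with the smallest interaction p. DDIT4, ATF3 and SLC7A5 were added after their values were seen. Each pathway list is named by its highest and lowest called gene in the combination. Promoter windows and coordinates come from RefSeq (GRCh38.p14). Alternatives were DESeq2 1.42.0, upper-quartile scaling, no filter, at least 10 counts in every library, a replicate block, fits of only the groups compared, limma-trend (limma 3.58.1) on log2(FPKM + 1) and log2(FPKM + 0.1), and leaving out each library.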

Additional observations from a re-analysis of the deposited data

Results flagged for a closer look

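For 36 members the effect of one drug differed with the presence of the other, by the interaction contrast of edgeR's quasi-likelihood test (adjusted p under 0.05 over all tested genes, 3 libraries a group). Each value is the log2 fold change of the combination minus those of both single drugs, and it compares matched doses only if everolimus alone was given at 5 µM. No explanation was tested. Among the transcription factors the values were 0.50 for ATF5, 0.38 for CEBPG, 0.38 for ATF4, 0.32 for CEBPB, -0.44 for ATF3 and -0.47 for NUPR1. The stress effectors stood at 0.88 for TRIB3, 0.48 for EIF4EBP1, 0.42 for DDIT4, 0.40 for CHAC1, 0.27 for PPP1R15A and 0.25 for STC2. For serine and one-carbon metabolism they were 0.64 for SHMT2, 0.61 for MTHFD1L, 0.58 for PSAT1, 0.57 for MTHFD2 and -0.40 for ALDH1L2, and PYCR1 of the proline route had -0.26. The transporters had 0.59 for SLC1A5, 0.58 for SLC7A5, 0.46 for SLC3A2, 0.25 for SLC7A1, -0.39 for SLC38A2 and -0.55 for SLC7A11.

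For tRNA charging and export they were 0.66 for YARS1, 0.55 for XPOT, 0.48 for IARS1, 0.45 for TARS1, 0.40 for MARS1, 0.37 for SARS1, 0.36 for NARS1, 0.31 for WARS1, 0.29 for CARS1, 0.28 for AARS1, 0.27 for LARS1 and 0.20 for GARS1. The calls of CEBPG, CHAC1, PPP1R15A and ALDH1L2 were lost under at least 1 alternative. CEBPG lost it without EVER replicate 1 (adjusted p = 0.052) and CHAC1 without COMB replicate 2, DMSO replicate 3, EVER replicate 1 or EVER replicate 2 (adjusted p of 0.050, 0.063, 0.060 and 0.054).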

How the results depend on the processing

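Over 48 genes and 7 comparisons, 248 of 336 results were called, and no call changed direction under any alternative. Of them, 26 lost the call under an alternative other than leaving out a library and 28 when a library was left out, while 27 results gained a call. The libraries showed no clear pairing by replicate number. The 18 correlations between same-numbered libraries lay between -0.35 and 0.090, and those between different numbers between -0.29 and 0.42. The value of 0.42 was that of DMSO replicate 1 with SGI replicate 3, the libraries that stood farthest from their own groups. They were left out singly and not together, and the cause of their shared deviation was not tested. Of 12 libraries, 0 correlated best with their own number in every other group. Each SGI library did correlate best with its own number within COMB, at 0.041, 0.051 and 0.090. With the replicate block, SGI-1027 lowered 13 members and the combination raised 23 and lowered 9. On log2(FPKM + 1), 2 members passed the study's cut-off with SGI-1027, and a fit of only the groups compared called 2 members lower in the combination than with everolimus. The medians of the groups by role moved as follows. Upper-quartile scaling gave, with everolimus, -0.10 for the transcription factors, -0.24 for the stress effectors, -0.29 for the serine and one-carbon enzymes, 0.16 for the other amino acid enzymes, -0.18 for the transporters and -0.096 for tRNA charging and export. It gave -0.0067, 0.13 and 0.035 for the serine, transporter and tRNA groups with SGI-1027, and 0.078, 0.13 and 0.17 with the combination. The log2(FPKM + 1) scale, which understates changes of low genes, gave -0.22 and -0.31 for the stress effectors and serine enzymes with everolimus, 0.20 for the transcription factors with SGI-1027, 0.30 and 0.38 for the transcription factors and stress effectors with the combination, and 0.32 and 0.35 for both in SGI-1027 against everolimus. Leaving out 1 library gave the tRNA group -0.21 to -0.15 with everolimus, 0.051 to 0.16 with the combination and 0.26 to 0.33 in SGI-1027 against everolimus. It gave the transcription factors 0.23 to 0.36 with SGI-1027 and 0.42 to 0.54 in SGI-1027 against everolimus, the stress effectors 0.42 to 0.55 with the combination and 0.42 to 0.56 in SGI-1027 against everolimus, and the transporters 0.021 to 0.13 with the combination. Medians near 0 moved by over 1.5 times when single libraries were left out. With everolimus the other amino acid enzymes were at 0.056 without EVER replicate 3. With SGI-1027 the serine enzymes were at -0.039 without DMSO replicate 3, the transporters at 0.027, 0.034 and 0.022 without DMSO replicate 1, SGI replicate 1 or SGI replicate 2, and the tRNA group at -0.0086, -0.035 and -0.012 without DMSO replicate 2, SGI replicate 2 or SGI replicate 3. With the combination the serine enzymes were at 0.039, 0.053 and 0.0016 without DMSO replicate 3, COMB replicate 1 or COMB replicate 3, the other amino acid enzymes at 0.086 without COMB replicate 3, the transporters at 0.13 and 0.021 without COMB replicate 1 or COMB replicate 3, and the tRNA group at 0.051 without DMSO replicate 1. The cause of these moves was not tested. Level differences of PHGDH and SLC6A9 were not detectable at this depth.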

Other observations

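Per length, the members differed widely in level. In DMSO the highest mean FPKM values were 131 for TARS1, 130.4 for DDIT4, 92.4 for GARS1 and 84.1 for SARS1. The factors that rose with SGI-1027 were low in comparison, with 9.85 for DDIT3, 2.81 for NUPR1, 2.25 for ATF3 and 1.40 for JDP2, whereas ATF4 itself stood at 42.7. In COMB, NUPR1 reached 11.6 mean FPKM and WARS1 169.8, the highest of the synthetase genes in that group.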
